A study of Mus musculus with 10 samples.

Results

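The protocadherins, the largest branch of the cadherin superfamily of adhesion proteins, were followed in a mouse embryonic stem cell line in which the histone chaperone NPM1 can be degraded. Every row of the deposited count table whose symbol begins with Pcdh was taken, which gave 36 of 33006 rows. They were split into 1 Pcdha row, 22 Pcdhb rows, 1 Pcdhg row and 12 rows of non-clustered genes. RNA came from 2 libraries with auxin and 2 libraries without auxin. All of them are E14 cells with degradable NPM1, grown with LIF, PD0325901 (1 µM, blocks MEK) and CHIR99021 (3 µM, blocks GSK3), synchronised in G1 and collected 12 h after release. Auxin triggers the breakdown of the degron-tagged protein, and the headers of the count table name the cells by a clone, so the line is 1 clone. H3K27me3, the histone mark laid down by Polycomb repressive complex 2, was described from 2 peak lists of such cells. One is a ChIP-seq sample without auxin at 6 h, and the other is a CUT&RUN sample labelled control at 12 h. With 1 sample per list and none with auxin used here, the mark was not compared between conditions.

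Clustered protocadherins give neurons their individual surface identity. In each of the Pcdha and Pcdhg clusters, a variable exon with its own promoter is spliced to constant exons shared by the whole cluster, and each neuron uses only some of the variable exons. Pcdhb genes are single exons without a constant part. The choice of promoter depends on CTCF, cohesin and DNA methylation. Non-clustered protocadherins have their own promoters and act in cell sorting, axon growth and synapses.

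The 4 RNA libraries held 13353446 and 16046290 counts with auxin, and 14789851 and 15183126 counts without auxin. Levels are given as CPM, each count divided by the size of its library in units of 1e+06 counts, on library sizes scaled by the trimmed mean of M-values. A level of 0 counts allows up to 3 counts, which is 0.178 to 0.221 CPM in these libraries, for counting error only. The Npm1 transcript stood at 804 ± 53.8 CPM with auxin and 1004 ± 75.6 CPM without auxin (SD, n = 2 each). The degron acts on the protein, so this transcript does not check the labels. Summed markers of embryonic stem cells stood at 5541 and 5421 CPM with auxin, and 6121 and 5920 CPM without auxin, and all 8 were detected. In edgeR (adjusted p under 0.05), 5 of these were lower and 1 higher with auxin, against 14.5% and 13.0% of all genes tested.

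The table does not resolve the isoforms of the Pcdha and Pcdhg clusters. The Pcdha row, named Pcdha2 (chromosome 18, 36930285 to 37187657, mm10, plus strand), joins 9 variable exons, out of 14 isoforms in RefSeq, with the 3 constant exons over 24670 exon bases. The Pcdhg row, named Pcdhga9 (chromosome 18, 37674335 to 37841873, plus strand), joins 9 variable exons, out of 22 isoforms in RefSeq, with 3 constant exons over 26094 exon bases. Each of these 2 values is therefore a sum over the counted exons of a cluster, in which shared constant exons cannot be assigned to an isoform. Variable exons of the isoforms left out of a row do not enter its value. The C-type isoforms Pcdhac1, Pcdhac2, Pcdhgc3, Pcdhgc4 and Pcdhgc5 lie inside these rows and have no value of their own. No exon base of the 36 rows was shared with another gene on the same strand. Per the file headers, fragments placed at several positions were not counted. This can lower the counts of Pcdhb exons and of variable exons in either cluster where their sequences are alike. The size of this effect was not measured.

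Most of the counted protocadherin RNA in these cells was in the Pcdhg row. It held 88.2% of the Pcdh counts of the 4 libraries, against 10.8% for the 12 non-clustered genes, 0.715% for the 22 Pcdhb genes and 0.304% for the Pcdha row. Its level was 148 and 153 CPM with auxin, and 154 and 149 CPM without auxin. The groups overlapped, and the fitted log2 fold change was -0.00 (SE 0.05, edgeR quasi-likelihood test, adjusted p = 0.963). Its sign turned under upper-quartile scaling, to 0.02.

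The Pcdha row was near the limit of detection. It had 12 and 10 counts with auxin, and 4 and 5 counts without auxin, which is 0.884 and 0.593 CPM against 0.281 and 0.339 CPM. The auxin libraries were both above those without auxin, but the row did not pass the filter on low counts. Under a filter of 10 counts over all libraries its log2 fold change was 1.20 (SE 0.56), with an adjusted p of 0.141 in edgeR.

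The 22 Pcdhb genes were almost silent. Their counts summed to 10 and 30 with auxin, and to 18 and 15 without auxin. The summed level was 1.26 ± 0.738 CPM with auxin and 1.14 ± 0.175 CPM without auxin (SD, n = 2 each). Pcdhb6, Pcdhb9, Pcdhb10, Pcdhb12 and Pcdhb13 had 0 counts in all 4 libraries, and 15 further genes had 1 to 9 counts in all. Pcdhb22 led with 0.295 and 0.593 CPM with auxin, and 0.070 and 0.474 CPM without auxin. Pcdhb14 had 0.074 and 0.178 CPM with auxin, and 0.351 and 0.135 CPM without auxin, and Pcdhb2 had 0.147 and 0.119 CPM against 0.281 and 0 CPM. The groups overlapped in each of these 3 genes, and no Pcdhb gene passed the filter. No fold change is given for a single Pcdhb gene.

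**Figure D1:**
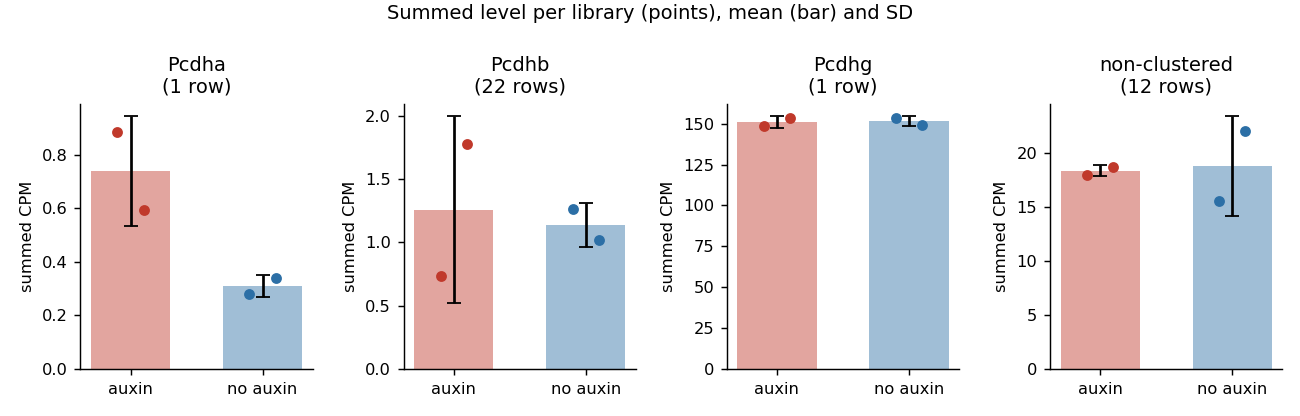
Summed CPM of the rows of each class in each library (points), with the mean as a bar and the SD as an error bar (n = 2 each, auxin left, no auxin right, a separate linear axis per class). The Pcdhg row is near 150 CPM in every library, while Pcdha and Pcdhb stay under 2 CPM.

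Per kilobase of counted exon, the order of levels without auxin began with the Pcdhg row at 5.81 ± 0.118 CPM per kb. Pcdh19 followed at 0.698 ± 0.167, Pcdh17 at 0.557 ± 0.119, Pcdh8 at 0.394 ± 0.136, Pcdh18 at 0.239 ± 0.126, Pcdh1 at 0.191 ± 0.036 and Pcdh10 at 0.130 ± 0.006 CPM per kb (SD, n = 2). From Pcdh19 to Pcdh1, the intervals of mean ± SD of neighbours in this order overlapped. A Pcdhg transcript carries only 1 of the variable exons in the counted length, so the value per kilobase is a low estimate for that cluster.

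With auxin, 7 of the 36 members passed the filter, and among them 1 was higher, 2 were lower and 4 were not called. Over all 13522 genes tested, 27.5% were called at an adjusted p under 0.05, 13.0% as higher and 14.5% as lower with auxin. The median log2 fold change was -0.43 over the 7 members and 0.01 over all genes tested. These 7 are the members with enough counts, and the other 29 gave no test.

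Pcdh17 (chromosome 14, 84443563 to 84537060, plus strand), a non-clustered protocadherin of synapses and axons, fell with auxin. It had 2.43 and 1.78 CPM with auxin, and 4.49 and 6.10 CPM without auxin. Both auxin libraries were below both libraries without auxin. The groups likewise did not overlap, in either direction, in 64.8% of all tested genes. The log2 fold change was -1.35 (SE 0.26), a level 2.54-fold lower, with an adjusted p of 0.00289 in edgeR. Leaving out any 1 library kept the call, with adjusted p from 2.6e-05 to 0.0107.

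Pcdh19 (chromosome X, 133582863 to 133688993, minus strand), whose human counterpart is mutated in an epilepsy of females, rose with auxin. It had 11.3 and 11.9 CPM with auxin, and 5.97 and 8.40 CPM without auxin, and the groups did not overlap. The log2 fold change was 0.69 (SE 0.17), a level 1.62-fold higher, with an adjusted p of 0.0108 in edgeR. Without the first library that had no auxin, the log2 fold change was 0.47 and the adjusted p was 0.0684.

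Pcdh1, an adhesion protein known from airway epithelium, was lower with auxin at the edge of the threshold. It had 7 and 15 counts with auxin, and 20 and 27 counts without auxin, or 0.516 and 0.890 CPM against 1.40 and 1.83 CPM. The log2 fold change was -1.16 (SE 0.38), with an adjusted p of 0.0434 in edgeR. Each of the 4 fits that left out 1 library lost the call, with adjusted p from 0.0501 to 0.229, and DESeq2 gave no adjusted p.

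Pcdh10, which recruits the WAVE complex to cell contacts, had 0.663 and 0.949 CPM with auxin, and 1.33 and 1.42 CPM without auxin. The groups did not overlap, but the log2 fold change of -0.74 (SE 0.36) did not pass, with an adjusted p of 0.150 in edgeR. Pcdh18 had 0.737 and 1.07 CPM with auxin, and 0.772 and 1.69 CPM without auxin. Pcdh8, known from the paraxial mesoderm, had 1.99 and 1.42 CPM with auxin, and 1.19 and 1.97 CPM without auxin. In both genes the groups overlapped, and the log2 fold changes were -0.43 (SE 0.44) and 0.09 (SE 0.34).

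The other 6 non-clustered genes were at or near 0. Pcdh9 had 3 and 6 counts with auxin, and 4 and 5 counts without auxin. Pcdh7 had 1 and 3 counts with auxin and 0 in both libraries without auxin, and Pcdh11x had 0 and 2 counts in each group. Pcdh20 had 0 counts with auxin and 1 count in each library without auxin. Pcdh12, an endothelial and trophoblast protocadherin, had 1 count in all, and Pcdh15, which forms the tip links of hair cells, had none.

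**Figure D2:**
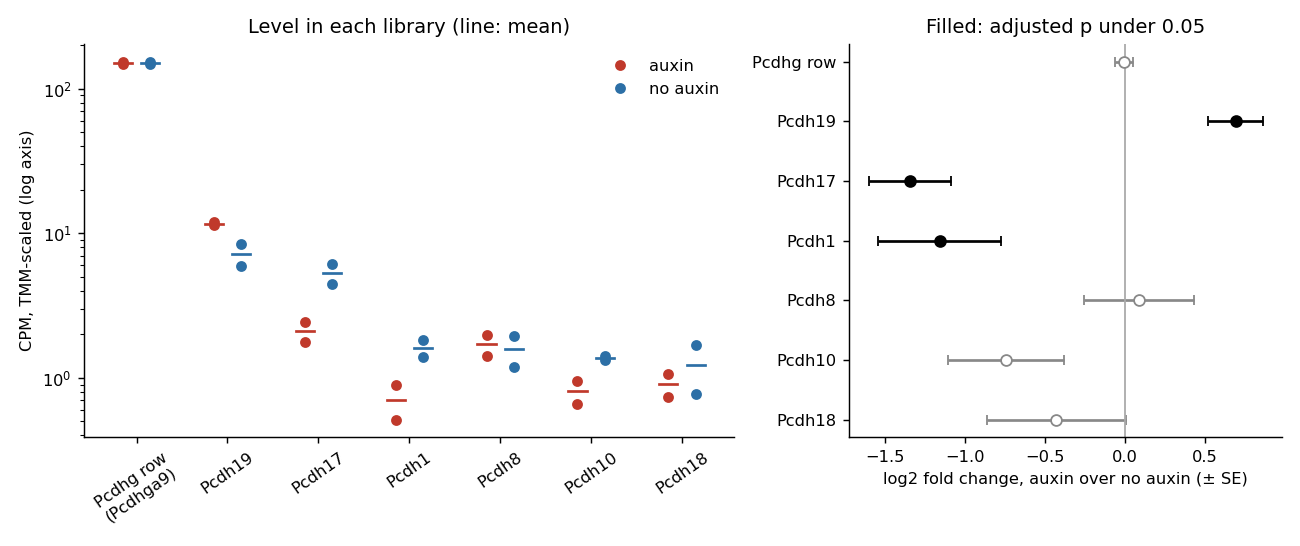
Left, CPM of the 7 tested members in each library on a log axis, with auxin left of no auxin and a line at the mean. Right, the fitted log2 fold change of auxin over no auxin with its SE, filled where the adjusted p was under 0.05. Pcdh19 lies to the right of 0, Pcdh17 and Pcdh1 to the left, and the Pcdhg row at 0.

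Summed markers of other cell types also differed between the groups. For single genes, the groups did not overlap in 64.8% of all tested genes, in either direction. Neural markers summed to 139 and 140 CPM with auxin, and 120 and 124 CPM without auxin, with none of 9 at 0. Tubb3 and Nes were higher with auxin (log2 fold changes 0.20 and 0.66) and Sox1 was lower (-0.76). Fibroblast markers summed to 16.4 and 23.1 CPM with auxin, and 9.55 and 11.7 CPM without auxin, with none of 8 at 0. Of these 8 markers, 4 were tested, and 1 was higher and 0 lower with auxin. Trophoblast markers summed to 137 and 142 CPM with auxin, and 120 and 128 CPM without auxin, with Elf5 at 0. Among them Eomes was lower with auxin (log2 fold change -1.48), while Cdx2, Gata3 and Tfap2c were higher (1.28, 1.11 and 1.23). Endothelial markers summed to 217 and 189 CPM with auxin, and 142 and 118 CPM without auxin, with Emcn at 0 and Pecam1 leading. Of these 5 markers, 3 were tested, and 2 were higher and 0 lower with auxin, against 13.0% higher and 14.5% lower over all genes tested. Cdh5, also among the 5, had 1 and 2 counts with auxin, and 1 and 2 counts without auxin. The part of any of these cell types in the changes of Pcdh19, Pcdh17 and Pcdh1 was not tested. In bulk RNA, fewer cells of a type and less RNA per cell cannot be told apart.

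Of 19 listed genes known to act on the choice or the silencing of clustered protocadherins, 18 were tested, and 10 were lower and 0 higher with auxin in edgeR, against 14.5% lower and 13.0% higher over all genes tested. Their median log2 fold change was -0.19. The DNA methyltransferase Dnmt3b stood at 53.4 and 50.0 CPM with auxin, and 96.7 and 99.5 CPM without auxin, with a log2 fold change of -0.93 (SE 0.07). The maintenance methyltransferase Dnmt1, the methylcytosine oxidase Tet1 and the cohesin subunit Rad21 were lower by smaller amounts, with log2 fold changes of -0.29, -0.33 and -0.25. Of 21 listed partners and processing enzymes, 2 were higher, namely the sheddase Adam10 (0.36) and the gamma-secretase subunit Ncstn (0.23). Ctnnd1 was lower, with a log2 fold change of -0.17, and 18 were not called. The 3 calls among 21 compare with 27.5% called over all genes tested.

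Among 33 other cadherin superfamily genes, 20 were tested, 4 were higher and 1 was lower, a share near the 27.5% called over all genes tested. Cdh1, the epithelial cadherin of embryonic stem cells, had a log2 fold change of 0.34, Fat2 of 1.66, Clstn1 of 0.22 and Cdh4 of -0.77. Of the 10 other genes inside the clusters or within 100 kb of them, 6 were tested, against a share of 13.0% called higher and 14.5% lower over all genes tested. The genes 3222401L13Rik and Taf7, between Pcdhb and Pcdhg, were higher, with log2 fold changes of 0.79 and 0.17, and the other 4 were not called.

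H3K27me3 peaks lay along all 3 clusters. The ChIP-seq peaks covered 4.54% of the Pcdha span, 4.91% of Pcdhb and 4.24% of Pcdhg, against 0.594% of chromosome 18. The CUT&RUN peaks covered 6.20%, 17.9% and 8.97%, against 3.09% of chromosome 18. The median peak in Pcdhb had an authors' fold enrichment of 3.36 by ChIP-seq and 3.19 by CUT&RUN, against 3.29 and 3.04 over all peaks. No peak in the clusters was among the strongest. The highest −log10 q was 3.78 in ChIP-seq and 4.53 in CUT&RUN, both in Pcdhb, against 16.9 and 26.5 over all peaks. Which library served as background for calling these peaks, and at what threshold, is not given in the sources used, and fold enrichment and coverage both depend on it. With peaks of −log10 q of at least 2 only, the CUT&RUN coverage was 0.302% of Pcdha, 5.70% of Pcdhb and 3.28% of Pcdhg. That kept 1 of 15 CUT&RUN peaks in Pcdha, 10 of 29 in Pcdhb and 3 of 11 in Pcdhg, against 16.1% of the whole list.

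The share of peak bases on the variable exons of the count table is not comparable between clusters. The table holds all 22 Pcdhb exons, but those of only 9 of 14 Pcdha and 9 of 22 Pcdhg isoforms. In Pcdhb these exons held 83.5% of the ChIP-seq peak bases and 79.8% of the CUT&RUN peak bases, in Pcdha 52.7% and 38.4%, and in Pcdhg 27.1% and 26.8%. For Pcdha and Pcdhg, the rest of the span includes the variable exons of isoforms that the table leaves out. Past the starts of left-out Pcdhg isoforms, over about an exon's length, CUT&RUN peaks covered from 0% (Pcdhgb5) to 99.1% (Pcdhga7). CUT&RUN peaks covered 46.5% of the Pcdhb exon bases and 5.23% of the rest of that span, and ChIP-seq peaks covered 13.3% and 1.17%. Over the exons of all genes, 6.37% of bases were covered in CUT&RUN and 2.83% in ChIP-seq. A CUT&RUN peak touched 20 of the 22 Pcdhb exons and a ChIP-seq peak touched 14, against 14.5% and 9.15% of all exon blocks of 2 kb or more. In all 3 clusters, the effect of reads placed at several positions on peaks over these related exons was not measured. Pcdhb1, at the edge of its cluster, had no peak on its exon in either list. Within Pcdhb, the CUT&RUN coverage was highest in Pcdhb20, at 84.2% of its exon.

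In Pcdha, 28.2% of the variable exon bases were covered in ChIP-seq and 28.1% in CUT&RUN, against 2.37% and 4.04% of the rest of the span. The C-type exon of Pcdhac1 was covered to 59.6% in ChIP-seq and 29.9% in CUT&RUN, and that of Pcdhac2 to 34.9% and 77.2%. In Pcdhg, 8.02% of the counted variable exon bases were covered in ChIP-seq and 16.8% in CUT&RUN, against 3.66% and 7.78% of the rest of the span. In both clusters this rest holds variable exons of left-out isoforms, so it is not a background free of exons. Of the 9 counted Pcdhg variable exons, 3 had a ChIP-seq peak (Pcdhga9, Pcdhgb6 and Pcdhga11). In CUT&RUN 3 had a peak (Pcdhga3, Pcdhga8 and Pcdhga9), so only Pcdhga9 was in both lists. The C-type exons of Pcdhgc3, Pcdhgc4 and Pcdhgc5 and all 3 constant exons had no peak in either list. They lay in a stretch of 216 kb without any peak (chromosome 18, 37757876 to 37974109), which also held the starts of Pcdhgb8, Pcdhga12 and Hdac3. The row that held most of the counted protocadherin RNA thus had peaks in its 5′ part and none in its 3′ part. The counts cannot say which part the RNA came from.

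**Figure D3:**
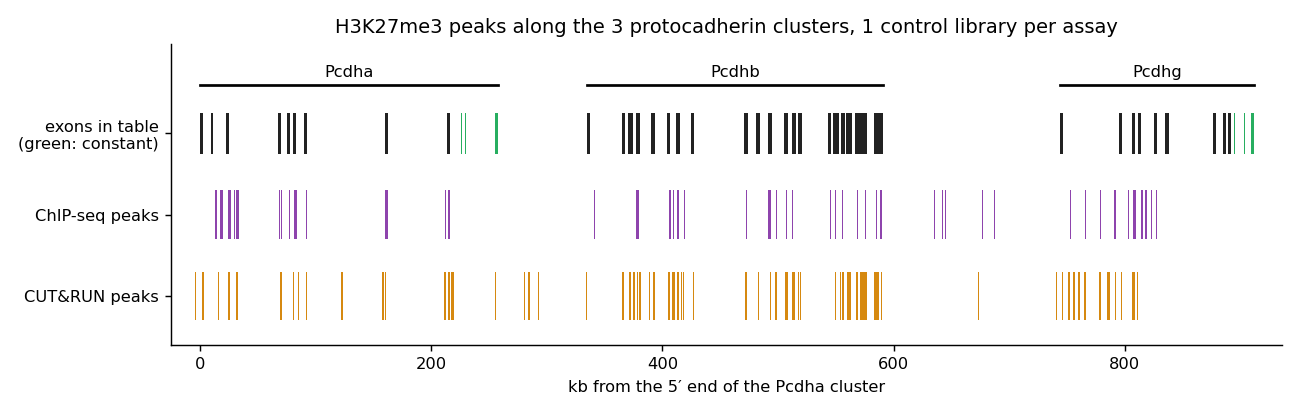
Exons in the count table (black variable, green constant) and H3K27me3 peaks of each list, by distance in kb from the 5′ end of the Pcdha cluster. Peaks narrower than 1 kb are drawn 1 kb wide. Peaks line up with most of the Pcdhb exons and are absent from the 3′ end of Pcdhg. In Pcdhg, where the exons of 9 of 22 isoforms are drawn, peaks fall largely outside the drawn exons.

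At the starts themselves, peaks were fewer. Within 1 kb of the 5′ ends in the count table, 9 of 36 members had a ChIP-seq peak, 18 a CUT&RUN peak, 4 both and 23 either, against 9.14%, 13.3%, 5.99% and 16.5% of 32786 genes. Pcdhb gave 5 of 22 in ChIP-seq and 14 in CUT&RUN. Some of these windows reach into the exon of the gene before, as Pcdhb19 ends at 37504127 and Pcdhb20 starts at 37504264. Pcdhb1 was counted in CUT&RUN although no peak lay on its exon. At the RefSeq starts of single isoforms, Pcdha had 6 of 14 in ChIP-seq and 4 in CUT&RUN, and Pcdhg had 2 of 22 and 4, against 9.5% and 15.0% of 27025 other starts. Peaks of both assays lay at 4 Pcdha, 3 Pcdhb and 1 Pcdhg starts, against 6.27% of other starts, and of either assay at 6, 16 and 5, against 18.2%. These counts depend on the window and on the peak threshold. A window of 2 kb on either side gave 20 members in ChIP-seq and 28 in CUT&RUN, against 12.8% and 17.4% of all genes. Peaks of −log10 q of at least 2 gave 3 and 6 members, against 4.63% and 4.58% of all genes.

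By distance, the peaks were most frequent 1400 to 2200 bp downstream of the isoform starts. In CUT&RUN, 18 of 22 Pcdhb starts were covered 1600 to 1800 bp downstream, and 2 of 22 in the 200 bp before the start. In ChIP-seq the top was 11 of 22, at 1800 to 2000 bp, and 0 of 22 in the 200 bp before the start. Other RefSeq starts had 7.10% and 3.29% in those downstream bins. Pcdha reached 7 of 14 at 2000 to 2200 bp in ChIP-seq and 5 of 14 at 1800 to 2000 bp in CUT&RUN, against 3.11% and 7.07% of other starts in those bins. Pcdhg reached 6 of 22 at 1600 to 1800 bp in ChIP-seq and 9 of 22 at 1400 to 1600 bp in CUT&RUN, against 3.27% and 7.27%. Within Pcdhb, 17 of 22 peaks of the ChIP-seq sample (77.3%) met 1 of CUT&RUN and 16 of 29 in the other direction (55.2%), against 52.0% and 22.1% of the whole lists. CUT&RUN peaks covered 17.9% of the Pcdhb span against 3.09% of chromosome 18, so these shares were not compared at equal peak density. The shares of peaks that met the other list were 42.9% and 46.7% in Pcdha (9 of 21 and 7 of 15 peaks) and 46.2% and 45.5% in Pcdhg (6 of 13 and 5 of 11 peaks).

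**Figure D4:**
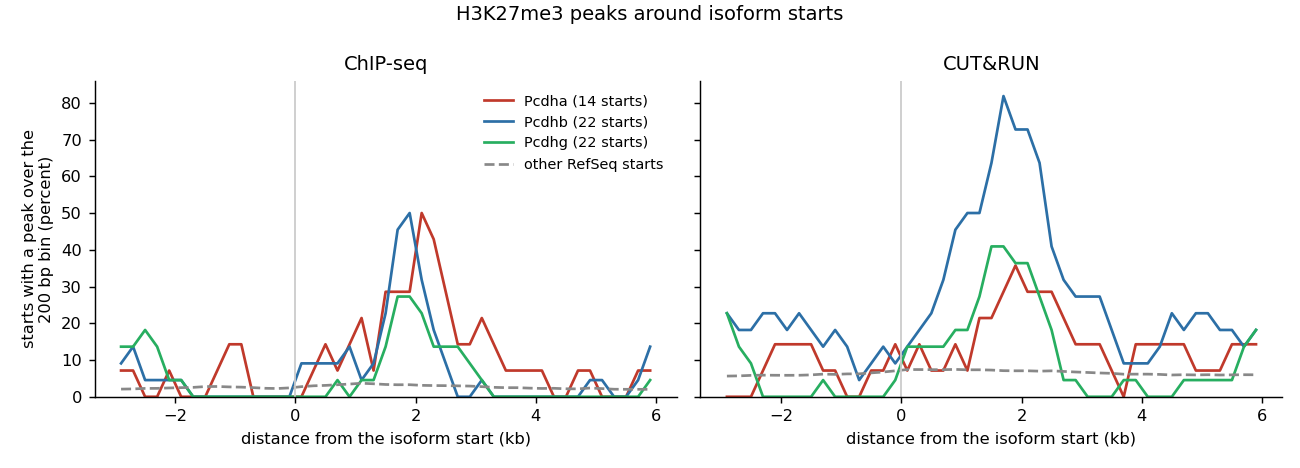
Percent of isoform starts with a peak over at least 100 bp of each 200 bp bin, by distance from the start in kb, for each cluster (solid) and other RefSeq starts (dashed). The Pcdhb line reaches its top between 1600 and 1800 bp downstream in CUT&RUN.

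The promoters of 4 non-clustered genes are shown, since Pcdh17 and Pcdh19 are the members called by both count tests and Pcdh10 and Pcdh8 carry ChIP-seq peaks near their start. The sequences are from RefSeq (GRCm38.p6), 250 bases before to 50 after the start, 5′ to 3′ on the gene's strand, with each CG dinucleotide in capitals.
Pcdh17: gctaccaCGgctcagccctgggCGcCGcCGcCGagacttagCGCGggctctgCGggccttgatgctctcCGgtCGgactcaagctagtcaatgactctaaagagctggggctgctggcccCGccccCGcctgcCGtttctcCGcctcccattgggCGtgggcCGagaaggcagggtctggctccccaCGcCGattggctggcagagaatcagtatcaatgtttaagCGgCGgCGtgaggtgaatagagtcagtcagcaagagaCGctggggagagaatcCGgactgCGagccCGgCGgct
Pcdh19: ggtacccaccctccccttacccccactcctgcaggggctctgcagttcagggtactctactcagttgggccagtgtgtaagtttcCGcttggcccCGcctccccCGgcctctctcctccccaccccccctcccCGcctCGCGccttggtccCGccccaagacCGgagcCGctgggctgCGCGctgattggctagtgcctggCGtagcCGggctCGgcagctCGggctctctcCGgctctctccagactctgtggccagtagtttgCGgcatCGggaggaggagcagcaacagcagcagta
Pcdh10: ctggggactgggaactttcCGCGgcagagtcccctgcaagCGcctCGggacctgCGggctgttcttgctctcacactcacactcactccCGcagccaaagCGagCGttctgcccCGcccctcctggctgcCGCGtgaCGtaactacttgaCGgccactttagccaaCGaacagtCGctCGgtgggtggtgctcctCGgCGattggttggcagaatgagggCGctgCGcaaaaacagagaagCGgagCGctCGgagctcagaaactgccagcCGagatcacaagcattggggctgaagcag
Pcdh8: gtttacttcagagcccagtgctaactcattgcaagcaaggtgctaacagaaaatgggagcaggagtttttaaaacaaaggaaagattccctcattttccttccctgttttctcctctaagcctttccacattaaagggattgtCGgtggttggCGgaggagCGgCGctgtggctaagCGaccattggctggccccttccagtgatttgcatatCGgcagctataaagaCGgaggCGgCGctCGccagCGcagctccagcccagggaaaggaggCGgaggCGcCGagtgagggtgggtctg
Pcdh17 (chr14:84443313-84443612, plus strand) holds 26 CG dinucleotides, Pcdh10 (chr3:45378148-45378447, plus strand) 24, Pcdh19 (chrX:133688944-133689243, minus strand) 18 and Pcdh8 (chr14:79771263-79771562, minus strand) 14. The median over 32851 listed promoters was 7, and 16.9% had at least as many as Pcdh17 and 36.3% at least as many as Pcdh8. The letters TATAAA, searched on both strands, were in the Pcdh8 sequence and in 13.6% of all listed promoters, and not in the other 3 sequences.

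The called genes differed in their peaks. Pcdh17 had 1 ChIP-seq peak inside the gene, of 992 bp (chromosome 14, 84446500 to 84447491), and no CUT&RUN peak. Pcdh19 had no peak in either list, on a chromosome that held 49 of 41159 ChIP-seq peaks and 236 of 66242 CUT&RUN peaks. Pcdh1 (chromosome 18, 38185915 to 38212053, minus strand) was covered to 34.5% in ChIP-seq and 77.8% in CUT&RUN, with a CUT&RUN peak of 13630 bp. Its 5′ end had a CUT&RUN peak and no ChIP-seq peak. Pcdh8 was covered to 40.5% in ChIP-seq and had no CUT&RUN peak, and Pcdh10 had 2 ChIP-seq peaks at its 5′ end. Pcdh12 alone among the 12 non-clustered genes had a peak at the 5′ end in both lists, and Pcdh9 had no peak in either.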

How the data were processed

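The deposited table holds raw counts of fragments per gene name. Per the file headers, the authors ran featureCounts 1.6.3 for exons, reverse-stranded, without multi-placed fragments; the submitters' processing notes name STAR 2.6.1d. The labels describe strand-marked polyadenylated RNA. The peak lists hold, as deposited, a score, a fold enrichment (ratio) and −log10 p and q per broad peak from 1 sample each. The submitters' processing notes name Bowtie2 2.4.1, MACS2 2.1.1 and mm10. The depth of the chromatin libraries is unknown.

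The test was that of edgeR 4.0.16 under R 4.3.3 (default expression filter, TMM factors, quasi-likelihood test, Benjamini-Hochberg adjustment over 13522 genes, threshold 0.05, two-sided); standard errors are the absolute log2 fold change over the root of F. The procedure was tested on simulated data. Alternatives were DESeq2 1.42.0, other scalings and filters, leaving out each library and a replicate block. A 5′ end was marked when a peak overlapped its window of 1 kb on either side by 1 base. Peaks were set against the table's exons and RefSeq GRCm38.p6, to which 25665 of 25705 genes matched by symbol aligned. No label says whether replicates were separate cultures, so p-values measure the spread of these 4 libraries alone, possibly a technical one.

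Named were all non-clustered genes, called members, the 3 highest per cluster, and up to 4 called genes per list with the smallest p. Members and lists were chosen with earlier results of these data known.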

Additional observations from a re-analysis of the deposited data

How the results depend on the processing

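Pcdh17 kept its direction and call under every alternative run, and Pcdh19 under all but 1 of them. Over all genes, DESeq2 called 949 higher, and leaving out 1 library gave 1225 to 1705 higher and 1257 to 1914 lower. Replicate numbers are not tied to a shared culture by the labels, and the 2 same-numbered pairs deviated together with a correlation of 0.227 over 13522 genes. A fit with the replicate block called 2972 genes higher and 3177 lower, against 1759 and 1964 without it. The block changed no call among the members. Members called lower numbered 1 in DESeq2 and 1 in each fit that left out a library, against 2, and members called higher 0 to 1, against 1. The sign of the log2 fold change turned for Pcdh18 without the second library lacking auxin (leave-one-out range -0.88 to 0.24), for Pcdh8 without the first library of either group (-0.22 to 0.49), and for the Pcdhg row under upper-quartile scaling (0.024) or without the first library of either group (-0.030 to 0.017). The log2 ratio of the Pcdhg sum was 0.090 on unscaled library sizes, against -0.005. That of the non-clustered sum was -0.79 without Pcdh19, its most abundant member, against -0.03. When 1 library was left out, the log2 ratios ran from 0.94 to 1.51 for Pcdha, -0.63 to 0.64 for Pcdhb, -0.029 to 0.019 for Pcdhg and -0.26 to 0.24 for the non-clustered genes. Leaving out the most abundant row could not be done for Pcdha and Pcdhg, which are 1 row each. At the 5′ ends, a window of 2 kb gave 20 members in ChIP-seq, 28 in CUT&RUN and 15 in both (all genes 12.8%, 17.4% and 9.24%), and one of 500 bp gave 10 in CUT&RUN and 2 in both (10.1% and 3.53%). Peaks of −log10 q of at least 2 gave 3 in ChIP-seq, 6 in CUT&RUN and 1 in both (4.63%, 4.58% and 1.55%), and covered 1.93%, 2.28% and 1.86% of Pcdha, Pcdhb and Pcdhg in ChIP-seq and 0.302%, 5.70% and 3.28% in CUT&RUN. With 10 kb added on either side, the coverage was 4.21%, 4.56% and 3.79% in ChIP-seq, and 16.8% of Pcdhb and 8.13% of Pcdhg in CUT&RUN. The cause of these shifts was not tested. Of the 29 members without a test, 23 were tested under a filter of 1 count in any library, with 0 called in edgeR and 0 at an unadjusted p under 0.05.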
